A study of Mus musculus with 8 samples.

Results

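The genes that encode the nuclear subunits of the mitochondrial respiratory chain and of ATP synthase were followed in pancreatic islets of Irs2-/- and wild-type mice, with and without sodium tungstate. Members were taken by symbol (Nduf a, b, c, s and v, Sdha to Sdhd, Uqcr, Cox4 to Cox8 with a letter, and Atp5), which gave 79 of the 18193 genes that have a probe set naming a single gene. By name they divide into 35 genes of complex I, 4 of complex II, 8 of complex III, 15 of complex IV and 17 of complex V. Ndufa4 is counted with complex I by its name, although its protein is now placed in complex IV. In the tests 74 members took part, because Cox6b2, Cox7a1, Cox7b2, Cox8b and Ndufb4 had a mean signal below the filter on dim probe sets (log2 5.27).

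All animals were male C57Bl/6 mice, 10 weeks old at the start and 13 weeks old at the end of 21 days. The 4 groups were Irs2-/- mice given sodium tungstate in distilled water, Irs2-/- mice given distilled water alone (untreated), wild-type mice given tungstate and untreated wild-type mice, with 2 arrays each. Irs2 is an adaptor protein of insulin and IGF-1 signalling, and sodium tungstate is a salt studied for lowering blood glucose. The tungstate concentration appears as 2 mg/ml in the design text and as 2 mg/dl in the sample labels, so it is not settled here. The labels say neither how the Irs2 deletion was made nor whether mice were pooled, and p-values therefore measure only the spread between these samples.

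In the respiratory chain, complex I takes electrons from NADH and complex II takes them from succinate. Complex III passes them to cytochrome c and complex IV passes them to oxygen, while complexes I, III and IV pump protons that drive ATP synthase, or complex V. In beta cells the ATP made in this way closes potassium channels and so couples glucose to insulin secretion. Some complex IV subunits come in tissue-restricted isoforms, among them Cox6a2, the heart and skeletal muscle counterpart of the widely expressed Cox6a1.

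Promoters of the members are shown because NRF1, ETS-family factors and YY1 are textbook regulators of respiratory chain genes. The RefSeq promoter table (GRCm38.p6, 250 bases before to 50 after a start) held 71 promoters for 66 of the 79 members. Both strands were searched for GCGCA and GCGC with any base between (NRF1), CCGGAAG (ETS), AAGATGGC (YY1), CAGCTG (an E-box of muscle genes) and TATAAA. The NRF1 letters stood in 22.5% of member promoters and in 4.60% of all 32851 promoters. For the ETS letters the shares were 23.9% and 8.86%, and for YY1 they were 12.7% and 2.75%. The E-box stood in 8.45% of member promoters and in 16.3% of all, and TATAAA in 12.7% and 13.6%. Median GC content was 58.3% in member promoters and 52.7% in all promoters, and a match describes letters, not binding. The 5 promoters printed here belong to the widely expressed isoform Cox6a1, to Cox8b, a muscle isoform of subunit 8, and to 3 subunit genes that were higher in untreated Irs2-/- islets. The table held no promoter of Cox6a2, and that of Cox8b does not stand for it. Capitals mark matches to any of the 5 motifs, none of which overlap one another here.
Cox6a1 (chr5:115348909-115349208, minus strand): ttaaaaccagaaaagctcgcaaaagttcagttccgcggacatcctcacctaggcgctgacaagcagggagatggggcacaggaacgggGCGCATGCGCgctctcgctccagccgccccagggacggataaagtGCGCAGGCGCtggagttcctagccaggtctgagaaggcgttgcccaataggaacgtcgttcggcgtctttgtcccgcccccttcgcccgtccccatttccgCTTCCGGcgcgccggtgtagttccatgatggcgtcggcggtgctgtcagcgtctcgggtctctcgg
Cox8b (chr7:140900397-140900696, minus strand): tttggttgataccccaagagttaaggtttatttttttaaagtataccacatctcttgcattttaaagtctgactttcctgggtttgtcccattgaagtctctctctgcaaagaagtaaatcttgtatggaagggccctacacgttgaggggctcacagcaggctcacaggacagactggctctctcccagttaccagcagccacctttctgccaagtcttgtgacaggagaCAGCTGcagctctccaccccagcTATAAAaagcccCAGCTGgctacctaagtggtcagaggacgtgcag
Uqcrh (chr4:116075021-116075320, minus strand): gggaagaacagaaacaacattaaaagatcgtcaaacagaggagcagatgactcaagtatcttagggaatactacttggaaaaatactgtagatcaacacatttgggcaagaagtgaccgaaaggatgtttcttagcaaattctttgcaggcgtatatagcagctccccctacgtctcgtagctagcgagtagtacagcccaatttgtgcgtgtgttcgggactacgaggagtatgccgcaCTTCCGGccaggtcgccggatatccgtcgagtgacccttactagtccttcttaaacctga
Ndufc2 (chr7:97399753-97400052, plus strand): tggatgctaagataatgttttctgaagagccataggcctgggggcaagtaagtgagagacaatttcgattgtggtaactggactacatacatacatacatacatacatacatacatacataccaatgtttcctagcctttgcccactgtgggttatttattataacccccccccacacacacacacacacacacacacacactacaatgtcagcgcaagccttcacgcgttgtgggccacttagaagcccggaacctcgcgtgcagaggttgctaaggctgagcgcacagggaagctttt
Atp5g1 (chr11:96075582-96075881, minus strand): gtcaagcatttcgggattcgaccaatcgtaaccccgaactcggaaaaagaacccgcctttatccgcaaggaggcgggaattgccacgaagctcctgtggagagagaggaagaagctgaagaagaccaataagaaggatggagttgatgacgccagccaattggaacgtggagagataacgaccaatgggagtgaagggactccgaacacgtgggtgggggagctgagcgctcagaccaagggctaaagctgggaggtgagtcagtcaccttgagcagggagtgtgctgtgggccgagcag

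The Cox6a1 promoter holds 2 NRF1 matches and 1 ETS match. The Cox8b promoter holds 2 E-boxes and 1 TATAAA, which begins 4 bases after its start. Uqcrh has 1 ETS match, which begins 10 bases before its start. Ndufc2 and Atp5g1 hold none of the 5 motifs in these windows, although both were among the genes that differed between genotypes.

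Irs2 itself was checked first. Its signal was 4.78 and 4.86 (log2) in tungstate Irs2-/- islets and 4.54 and 4.89 in untreated Irs2-/- islets, against 7.89 and 7.61 in tungstate and 7.91 and 7.73 in untreated wild-type islets. The difference in untreated mice was -3.10 ± 0.16 (log2 ± SE, limma, adjusted p = 0.000209). Whether the probes lie in the deleted stretch is not known here. The islet label was checked against 10 beta-cell genes, all of them measured, whose mean level was 10.4 to 11.9 (log2) on every array. Of these, Ins2 lay between 14.7 and 14.8 on all 8 arrays. Acinar genes of the exocrine pancreas were also present, with a mean of 9 genes between 8.88 and 12.7, so the islets were not free of exocrine RNA. In bulk tissue, fewer cells of a type and less RNA per cell cannot be told apart.

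Few respiratory chain genes passed the test between the genotypes. In untreated mice, 4 of 74 tested members were higher in Irs2-/- islets (Ndufc2, Uqcrh, Atp5g1 and Ndufa1) and 1 was lower (Cox6a2), at a limma adjusted p under 0.05. That is 5.41% higher and 1.35% lower, where 8.27% of all 13369 tested genes were higher and 8.52% were lower (16.8% in all). The smallest difference called among the members in untreated mice was 0.58, and the median SE over all genes was 0.14. The differences were also narrow. Their interquartile range was 0.24 among members and 0.44 among all tested genes, and 69 of 74 members (93.2%) lay within 0.5 of 0, compared with 79.7% of all genes. The median difference was 0.13 in members and -0.01 in all tested genes, with 56 members above 0 and 18 below. Arrays of the genotypes did not overlap for 29 members that were higher (39.2%, against 28.9% of all genes) and 2 that were lower (2.7%, against 31.7%).

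Each complex had a median above 0. Median differences in untreated mice were 0.13 for complex I, 0.09 for complex II, 0.23 for complex III, 0.11 for complex IV and 0.10 for complex V. Called genes numbered 2 of 34 in complex I, 0 of 4 in complex II, 1 of 8 in complex III, 1 of 11 in complex IV and 1 of 17 in complex V. Among all tested genes the share called was 16.8%, and counts this small do not rank the complexes.

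**Figure D1:**
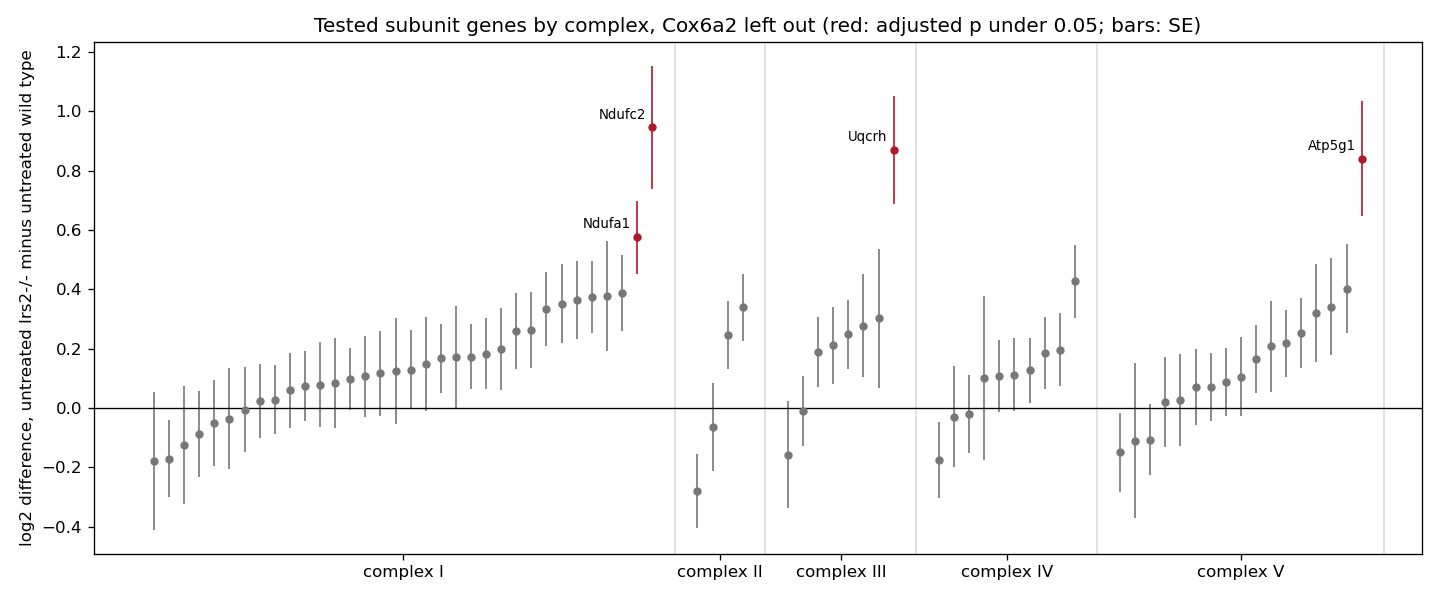
Log2 difference (untreated Irs2-/- minus untreated wild type, y axis) of 73 tested subunit genes, sorted within each complex (x axis). Bars are SE from limma, red marks the genes past an adjusted p of 0.05, and Cox6a2 at -3.13 is left out. The other 69 points lie between -0.28 and 0.43, with Ndufc2, Ndufa1, Uqcrh and Atp5g1 above them.

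The largest difference of any member was that of Cox6a2, whose protein takes the place of Cox6a1 in the cytochrome c oxidase of muscle. Cox6a2 read 7.20 and 9.47 (log2) in tungstate Irs2-/- islets and 7.00 and 8.12 in untreated Irs2-/- islets. The wild-type values were 10.84 and 11.00 with tungstate and 10.63 and 10.75 untreated. Every Irs2-/- array lay below every wild-type array, and the Irs2-/- replicates stood 1.11 to 2.27 apart while the wild-type replicates stood within 0.17 of each other. The genotype difference was -3.13 ± 0.65 in untreated mice (8.76-fold lower, adjusted p = 0.0182) and -2.86 ± 0.46 averaged over treatment (adjusted p = 0.00559). In tungstate-treated mice it was -2.59 ± 0.65, with an adjusted p of 0.102, and without replicate 2 of the tungstate Irs2-/- group it was -3.72 (adjusted p = 0.00495). A second Cox6a2 probe set gave -3.45 in untreated and -3.02 in treated mice. The untreated call was lost under 5 of 19 alternatives, while the difference ran from -3.85 to -2.57 over the 19. Among the 5 was a variance trend with robust moderation (limma adjusted p = 0.0786). The others left out replicate 1 or 2 of the untreated wild-type group, replicate 1 of the untreated Irs2-/- group, or replicate 1 of both untreated groups. The averaged call was kept under all 18 alternatives, with adjusted p from 0.000387 to 0.0376. Among the 18 is the same fit at a looser threshold of 0.1, which cannot end a call.

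Cox6a1 lay between 12.81 and 13.00 on all 8 arrays. It read 12.95 and 12.82 in tungstate Irs2-/- islets, 13.00 and 12.92 in untreated Irs2-/- islets, 12.87 and 12.90 in tungstate wild-type islets and 12.87 and 12.81 in untreated wild-type islets. Its genotype difference in untreated mice was 0.13 ± 0.11 (adjusted p = 0.467). Signals of different probe sets have no common scale, so the isoforms were compared through Cox6a2 minus Cox6a1 on each array, and only between groups. That quantity was -4.97 ± 1.20 in Irs2-/- islets and -2.06 ± 0.14 in wild-type islets (SD, n = 4 arrays each), a difference of -2.92. The exact two-sided permutation test gave p = 0.0286, the smallest that 4 against 4 arrays allow, and 0.171 after adjustment over 6 isoform pairs. The shift was -3.26 among untreated and -2.58 among tungstate-treated arrays.

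**Figure D2:**
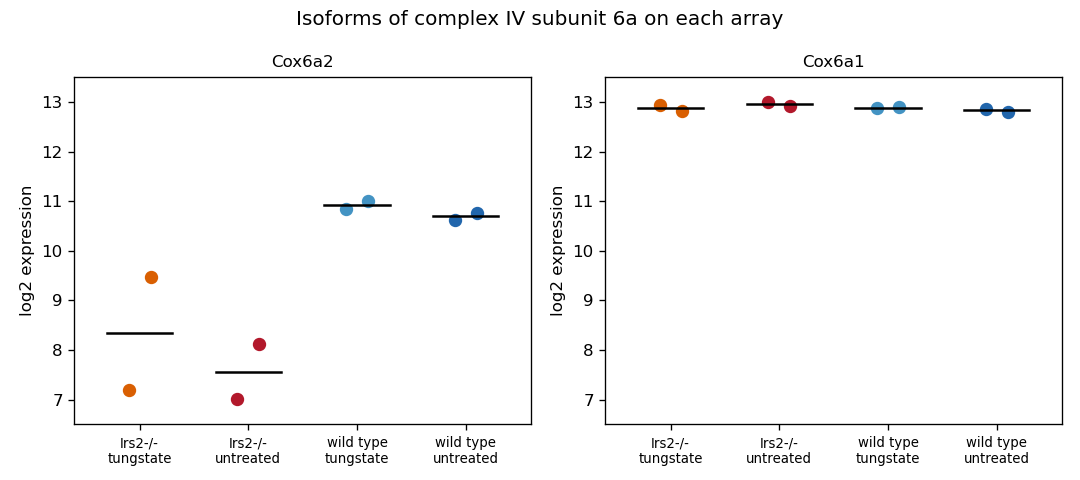
Log2 expression (y axis) of Cox6a2 (left) and Cox6a1 (right) in the 4 groups (x axis). Points are arrays and lines are group means of 2 arrays. Cox6a2 lies between 7.00 and 9.47 in Irs2-/- and between 10.63 and 11.00 in wild-type islets, while Cox6a1 stays between 12.81 and 13.00.

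With all arrays, none of the other isoform pairs gave an exact permutation p under 0.05, and after adjustment no pair did, Cox6a2 included. Cox7a1, the heart and skeletal muscle form of subunit 7a, lay between 4.17 and 4.63 on all arrays. Cox8b, a muscle form of subunit 8, lay between 4.63 and 4.98. Both were below the filter on every array, as was Cox7b2 at 3.60 to 3.89, while Cox6b2, a testis form of subunit 6b, lay at 4.94 to 5.31. Their differences between genotypes, each against the general isoform on the same array, were -0.20 for Cox7a1 (exact permutation p = 0.171), -0.12 for Cox6b2 (exact p = 0.200) and -0.04 for Cox8b (exact p = 0.686). The mean signals of Cox7a1, Cox6b2 and Cox8b were below the filter, so these values cannot show whether the restricted isoform shifted. Without replicate 1 of the untreated Irs2-/- group Cox7a1 gave -0.29 (exact p = 0.0286), and with quantile normalization Cox7a1 gave -0.06 and Cox6b2 -0.0016. Cox4i2, a lung form that sits outside the symbol rule, gave 0.02 against Cox4i1 (exact p = 0.857). Ndufa4l2, the paralog of Ndufa4 known from hypoxia, gave 0.08 (exact p = 0.600). Cox7b had no single-gene probe set, so no pair was formed for Cox7b2.

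Striated muscle markers were near background. The mean of 14 markers, all with a probe set and 6 above the filter, was 5.10 to 5.20 in Irs2-/- and 5.14 to 5.22 in wild-type islets, and 0 of the 6 passed the limma test between genotypes in untreated mice (background 16.8%). Averaged over treatment 1 of the 6 was lower (all genes 11.2%), Actn3, the alpha-actinin of fast muscle fibres. It read 5.04 and 5.17 in tungstate and 5.17 and 5.43 in untreated Irs2-/- islets, against 5.61 and 5.70 in tungstate and 5.74 and 5.61 in untreated wild-type islets, a difference of -0.46 ± 0.09 (adjusted p = 0.0116). Creatine kinase Ckm lay between 5.47 and 5.76 and the myosin heavy chain Myh4 between 4.17 and 4.41 on all arrays. The beta-cell genes had a lower mean in Irs2-/- islets. Their mean over 10 genes was 10.77 and 11.39 in tungstate Irs2-/-, 10.45 and 10.67 in untreated Irs2-/-, 11.94 and 11.83 in tungstate wild-type and 11.83 and 11.86 in untreated wild-type islets. In untreated mice 7 of the 10 were lower and 0 higher by limma, against 8.52% and 8.27% of all genes. Among the 7 were the glucose transporter Slc2a2 (-2.30 ± 0.36, adjusted p = 0.00817) and Ucn3 (-2.07 ± 0.32, adjusted p = 0.00743). Between tungstate-treated genotypes 0 of the 10 were called, against 1.02% of all genes, with a median of -0.75. Within each Irs2-/- group the array with more Cox6a2 also had the higher beta-cell mean, as in untreated wild-type islets, while in tungstate wild-type islets the order was the opposite. The part of this list in the Cox6a2 difference was not tested.

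Of the 4 genes that were higher, the first in size was Ndufc2, an accessory subunit in the membrane arm of complex I. It read 11.95 and 11.31 in tungstate Irs2-/- islets and 11.89 and 12.12 in untreated Irs2-/- islets. Wild-type values were 11.13 and 11.11 with tungstate and 10.93 and 11.19 untreated. All 4 Irs2-/- arrays lay above all 4 wild-type arrays. The untreated difference was 0.95 ± 0.21 (1.93-fold, adjusted p = 0.0224). Of 3 further probe sets, those at a high signal gave 0.73 and 1.17, and one at a mean signal of 6.16 gave 0.19.

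Uqcrh, the hinge protein of complex III that helps cytochrome c dock with cytochrome c1, followed. Its values were 11.29 and 11.05 in tungstate Irs2-/- and 11.31 and 11.76 in untreated Irs2-/- islets. In wild-type islets they were 10.73 and 10.85 with tungstate and 10.51 and 10.82 untreated. The genotypes again did not overlap. The untreated difference was 0.87 ± 0.18 (1.83-fold, adjusted p = 0.0191), and 0.67 by a second probe set.

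Atp5g1 encodes subunit c, which forms the rotating membrane ring of ATP synthase. It read 10.92 and 10.51 in tungstate Irs2-/- islets and 10.79 and 11.10 in untreated Irs2-/- islets, against 10.18 and 10.20 in tungstate and 9.90 and 10.32 in untreated wild-type islets. Here too every Irs2-/- array was above every wild-type array. The untreated difference was 0.84 ± 0.19 (1.79-fold, adjusted p = 0.0263). A dim second probe set with a mean signal of 3.99 gave -0.27, and averaging both ended the call (0.29, adjusted p = 0.251). The sister genes Atp5g2 and Atp5g3 encode the same mature subunit c, and they differed by 0.22 ± 0.11 (adjusted p = 0.221) and 0.11 ± 0.13 (adjusted p = 0.633).

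Ndufa1, an X-linked accessory subunit needed for complex I assembly, was higher by less but with tight replicates. It read 13.06 and 12.83 in tungstate and 13.25 and 13.29 in untreated Irs2-/- islets, against 12.76 and 12.64 in tungstate and 12.64 and 12.75 in untreated wild-type islets. The untreated difference was 0.58 ± 0.12 (1.49-fold, adjusted p = 0.0204).

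**Figure D3:**
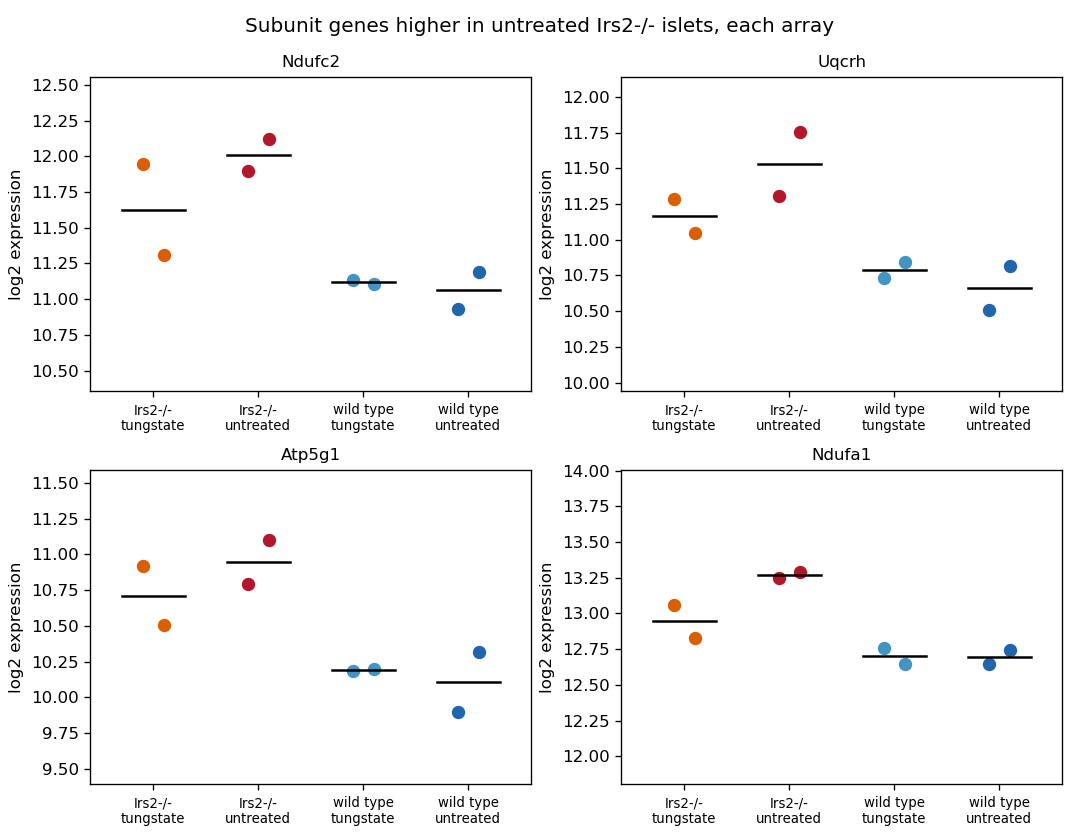
Log2 expression (y axis) of Ndufc2, Uqcrh, Atp5g1 and Ndufa1 in the 4 groups (x axis). Points are arrays, lines are group means of 2 arrays, and each panel spans 2.2 log2 units around its own mean. In each panel the 4 Irs2-/- arrays lie above the 4 wild-type arrays. The genes shown were picked by the genotype test, so this separation adds no support to their calls.

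These 5 calls did not all survive the loss of an array. Without replicate 1 of the untreated wild-type group 0 members were called by limma, and without its replicate 2 only Atp5g1 and Uqcrh were. Without replicate 1 of the untreated Irs2-/- group Uqcrh alone was called, and without replicate 2 of that group Cox6a2 alone. Without either tungstate wild-type array Atp5g1 was lost (adjusted p = 0.0556 and 0.0555). The direction of the 5 differences was the same in all of these fits. Calls among all genes in these fits were not counted, so the losses cannot be read as particular to the subunits. With the acinar marker level as a covariate, Cox6a2 was the 1 member called, and Ndufc2, Uqcrh, Atp5g1 and Ndufa1 gave 0.92, 0.70, 0.67 and 0.57 with adjusted p of 0.0868, 0.0986, 0.131 and 0.0782.

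Averaged over treatment, 7 of 74 members were called (9.46%), against 22.1% of all tested genes. Of these 6 were higher (8.11%, background 10.9%) and 1, Cox6a2, was lower (1.35%, background 11.2%). The same 5 genes were joined by Cox5a and Sdhd. Cox5a, a matrix-side subunit of cytochrome c oxidase, differed by 0.29 ± 0.09 (adjusted p = 0.0486). Sdhd, a membrane anchor of succinate dehydrogenase, differed by 0.27 ± 0.08 (adjusted p = 0.0490). Both are close to the threshold, and Cox5a lost its call under 12 and Sdhd under 15 of 18 alternatives. The mean of its probe sets gave Sdhd a difference of 0.07 in untreated mice, against 0.34 for the probe set used.

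Among the other subunits with catalytic roles none was called. The 6 complex I core subunits of the peripheral arm that were measured (Ndufs1, Ndufs3, Ndufs7, Ndufs8, Ndufv1 and Ndufv2) differed by 0.02 to 0.20 in untreated mice. Ndufs1, the largest core subunit, gave 0.13 ± 0.13 (adjusted p = 0.549). Ndufv1, which binds NADH, gave 0.03 ± 0.12 (adjusted p = 0.899). Accessory subunits of complex I spread from -0.18 to 0.95 over 27 genes. The highest of those not called was Ndufa13 at 0.39 ± 0.13 (adjusted p = 0.0754), and the lowest was Ndufb2 at -0.18 ± 0.23 (adjusted p = 0.646). Ndufs4 was uncertain, since its probe sets ran from -0.40 to 0.38.

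Within complex II the subunits pointed both ways. Sdha, the flavoprotein that oxidises succinate, read 10.45 and 10.52 in tungstate Irs2-/- islets and 10.46 and 10.35 in untreated Irs2-/- islets, against 10.63 and 10.55 in tungstate and 10.81 and 10.56 in untreated wild-type islets. It had the lowest value of any member not called in untreated mice, -0.28 ± 0.12 (adjusted p = 0.162). The iron-sulphur subunit Sdhb gave 0.25 ± 0.11 (adjusted p = 0.176), the membrane anchor Sdhc -0.07 ± 0.15 (adjusted p = 0.804) and Sdhd 0.34 ± 0.11 (adjusted p = 0.0795).

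In complex III the core protein Uqcrc1 gave 0.25 ± 0.12 (adjusted p = 0.187). The Rieske iron-sulphur protein Uqcrfs1, which hands electrons to cytochrome c1, gave 0.19 ± 0.12 (adjusted p = 0.313). In complex IV, Cox5a gave 0.43 ± 0.12 in untreated mice (adjusted p = 0.0507), Cox5b 0.11 ± 0.12 (adjusted p = 0.586) and Cox6c -0.18 ± 0.13 (adjusted p = 0.390). The subunits of the ATP synthase head showed a median of 0.09 over 5 genes. Its alpha subunit Atp5a1 gave -0.11 ± 0.12 (adjusted p = 0.586) and its catalytic beta subunit Atp5b 0.09 ± 0.11 (adjusted p = 0.646). Over the 12 genes of its membrane part and stalk the median was 0.16, and Atp5o, a subunit of the stalk, gave 0.40 ± 0.15 (adjusted p = 0.106).

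One array carried much of the small upward shift. Among the 71 tested members that are not restricted isoforms, 52 had their highest value on replicate 2 of the untreated Irs2-/- group. The lowest value fell on replicate 1 of the untreated wild-type group for 24 genes and on replicate 1 of the untreated Irs2-/- group for 17. In the untreated Irs2-/- group replicate 2 exceeded replicate 1 for 60 of 71 genes, by a median of 0.26, where the median over all genes was 0.03. The mean level of the 71 genes was 10.85 and 10.78 in tungstate Irs2-/-, 10.74 and 10.99 in untreated Irs2-/-, 10.76 and 10.75 in tungstate wild-type and 10.67 and 10.75 in untreated wild-type islets. Without replicate 2 of the untreated Irs2-/- group the median of all 74 members between untreated genotypes was 0.01 in place of 0.13. Without replicate 1 of the same group it was 0.24. By complex, the medians without replicate 2 were -0.005 (complex I), 0.06 (II), 0.08 (III), 0.002 (IV) and 0.008 (V).

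The same array stood apart in fat-cell genes. Adipoq, the fat-cell hormone adiponectin, read 8.37 there and between 4.24 and 4.59 on the other 7 arrays. Fabp4, a fatty-acid carrier of fat cells, macrophages and endothelium, was 9.53 and 8.95 in tungstate and 8.63 and 9.99 in untreated Irs2-/- islets, against 6.52 and 7.17 in tungstate and 7.70 and 7.36 in untreated wild-type islets. The mean of the 8 adipocyte markers measured, of 10 listed, was 5.97 and 5.81 in tungstate and 6.06 and 6.88 in untreated Irs2-/- islets, and 5.26 to 5.37 in wild-type islets. Among these 8, Lep lay between 4.80 and 5.02 and Ucp1 between 4.69 and 5.12 on all arrays. Acinar genes were also highest on that array, with means of 11.1 and 12.3 in tungstate and 11.8 and 12.7 in untreated Irs2-/- islets. In wild-type islets they averaged 10.3 and 10.4 with tungstate and 8.88 and 11.9 untreated, so replicate 1 of the untreated wild-type group was the lowest. Between untreated genotypes all 9 lay above 0, with a median of 1.49, and 2 were called higher by limma. Macrophage genes averaged 8.36 and 8.59 in untreated Irs2-/- islets and 7.03 to 7.41 in the other groups, and 9 of 9 were higher in untreated Irs2-/- than in untreated wild-type islets. Lymphocyte genes averaged 5.92 and 6.51 in tungstate and 8.45 and 7.39 in untreated Irs2-/- islets, against 6.12 and 5.41 in tungstate and 6.70 and 5.37 in untreated wild-type islets. Between untreated genotypes 3 of 7 were higher, as were 1 of 6 fibroblast and 1 of 7 endothelial genes, with medians of 2.34, 1.07 and 0.44. For the counts of acinar, macrophage, lymphocyte, fibroblast and endothelial genes, the share of all tested genes called higher by limma was 8.27%. What these cell markers contribute to the subunit values was not tested.

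**Figure D4:**
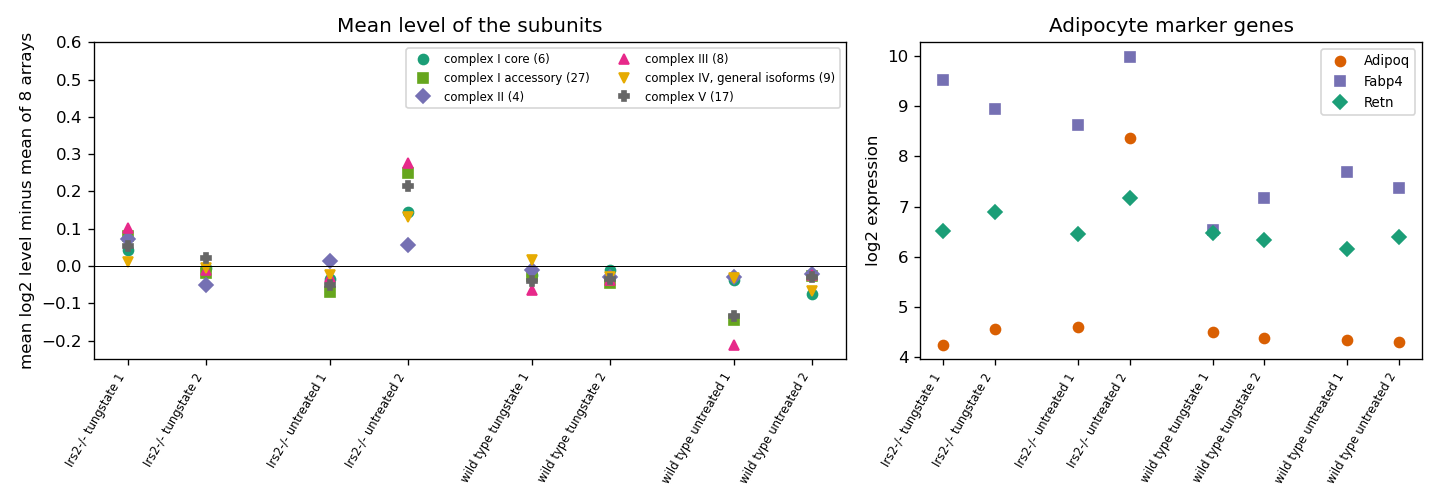
Left, mean log2 level of the subunits of each class on each array, less that class's mean over the 8 arrays (gene numbers in parentheses). Right, log2 expression of 3 adipocyte marker genes on the same arrays (x axes, arrays by group and replicate). Replicate 2 of untreated Irs2-/- is the highest for 5 of the 6 classes (all but complex II) and is the one array where Adipoq reaches 8.37.

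Between tungstate-treated genotypes no subunit gene passed the test. There 0 of 74 members were called by limma, against 1.02% of all genes, and 4 had an unadjusted p under 0.05 (5.41%, against 16.1% of all genes). These were Cox6a2, lower, and Atp5g1 (0.52 ± 0.19), Ndufc2 (0.50 ± 0.21) and Ndufa4l2 (0.39 ± 0.16), with positive differences and adjusted p of 0.239 to 0.290. The median difference was 0.06 in members and -0.01 in all genes. Non-overlapping arrays were found for 28 members that were higher (37.8%, against 22.4%) and 8 that were lower (10.8%, against 25.7%). Without replicate 2 of the tungstate Irs2-/- group the difference was -3.72 for Cox6a2 and 0.82 for Ndufc2.

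Tungstate itself moved no member past the threshold. In Irs2-/- islets 0 of 74 members were called by limma, against 0.494% of all genes, and 3 had an unadjusted p under 0.05 (4.05%, against 13.3% of all genes). These were Ndufa1 (-0.33 ± 0.12, adjusted p = 0.312), Cox5a (-0.33 ± 0.12, adjusted p = 0.313) and Ndufa4l2 (0.38 ± 0.16, adjusted p = 0.362). The median was -0.04, with 28 members above 0 and 46 below, and -0.01 over all genes. Arrays did not overlap for 2 higher members (2.7%, against 17.6%) and 9 lower ones (12.2%, against 22.9%). Cox6a2 differed by 0.77 ± 0.65 (adjusted p = 0.649). Its sign rested on replicate 2 of the tungstate group, at 9.47, and without that array the difference was -0.36. The genes higher in untreated Irs2-/- islets gave negative differences with tungstate, of -0.38 for Ndufc2, -0.37 for Uqcrh and -0.24 for Atp5g1, which share the untreated Irs2-/- arrays with the genotype comparison.

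In wild-type islets the differences with tungstate were the narrowest of the 4 comparisons between 2 groups, with an interquartile range of 0.07 among members and 0.20 among all genes. Calls numbered 0 of 74, as they did among all 13369 genes (0%), and 1 member had an unadjusted p under 0.05 in limma (1.35%, against 2.72% of all genes). That gene, named after its value was seen, was Cox8c, a testis form of subunit 8. It read 7.41 and 8.06 with tungstate and 6.61 and 7.34 without, a difference of 0.76 ± 0.28 (adjusted p = 0.999971). The median difference was 0.06 in members, with 57 of 74 above 0, and -0.03 over all genes, of which 42.4% were above 0. Arrays did not overlap for 20 higher members (27.0%, against 15.2%) and 2 lower ones (2.7%, against 21.9%). The 25th and 75th percentiles of the members were 0.01 and 0.08. Without replicate 1 of the untreated wild-type group the median was 0.005, and without its replicate 2 it was 0.09.

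**Figure D5:**
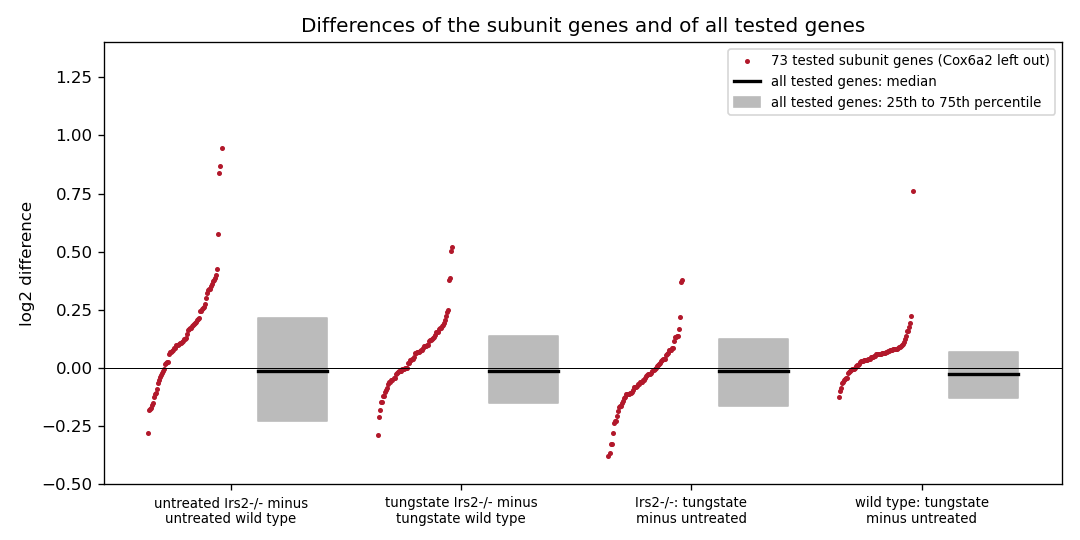
Log2 differences (y axis) in the 4 comparisons between 2 groups (x axis). Red points are 73 tested subunit genes in order of size, with Cox6a2 left out, beside the median (line) and the 25th to 75th percentiles (grey) of all 13369 tested genes. By interquartile range the subunits are spread most between the untreated genotypes and least with tungstate in wild-type islets, where Cox8c stands apart at 0.76.

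The response to tungstate was not shown to differ by genotype for any member. The interaction called 0 of 74 members by limma (0.0224% of all genes), with 0 at an unadjusted p under 0.05 against 6.45% of all genes. For Cox6a2 it was 0.54 ± 0.92 (adjusted p = 0.956), and -0.59 without replicate 2 of the tungstate Irs2-/- group. Averaged over genotype, tungstate called 0 of 74 members (0.0898% of all genes), with Cox8c the 1 member at an unadjusted p under 0.05 (1.35%, against 10.9% of all genes). Its difference was 0.57 ± 0.20 (adjusted p = 0.374).

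Genes that work next to the subunits were listed as well. The first list held 9 tested genes in or next to the chain that fall outside the symbol rule. Of these, 1 was higher and 1 lower in untreated Irs2-/- islets (background 8.27% and 8.52%), with a median of 0.15. Etfb, which feeds electrons from fatty acid oxidation into the chain, read 10.34 and 10.53 in untreated Irs2-/- islets and 9.79 and 9.74 in untreated wild-type islets, a difference of 0.67 ± 0.12 (adjusted p = 0.0109). Nnt, the transhydrogenase that makes NADPH from NADH with the proton gradient, read 9.25 and 9.36 in untreated Irs2-/- and 9.98 and 9.74 in untreated wild-type islets, a difference of -0.55 ± 0.13 (adjusted p = 0.0249). Cyc1, the cytochrome c1 that Uqcrh serves, gave 0.48 ± 0.14 (adjusted p = 0.0539), and Cox4i1 gave 0.27 ± 0.12 (adjusted p = 0.152).

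Assembly factors had few calls. Of 47 tested, 0 were higher and 1 was lower (2.13%) in untreated Irs2-/- islets, against 8.27% and 8.52% of all genes, with a median of 0.04. This was Ndufaf6, needed for the assembly of complex I, at -0.50 ± 0.11 (adjusted p = 0.0239). Surf1, an assembly factor of complex IV, gave 0.34 ± 0.11 (adjusted p = 0.0629), and Uqcc1, one of complex III, gave -0.40 ± 0.12 (adjusted p = 0.0556). By limma 0 of 12 citric acid cycle genes, 0 of 21 regulators of mitochondrial gene expression and 0 of 7 carriers were called (16.8% of all genes), with medians of 0.005, -0.05 and -0.10. Among the regulators, Nrf1, a transcription factor of many respiratory chain genes, gave -0.39 ± 0.15 (adjusted p = 0.120). Mterf3, a repressor of mitochondrial transcription, gave -0.42 ± 0.13 (adjusted p = 0.0576). Vdac1, the outer membrane pore, gave -0.38 ± 0.14 (adjusted p = 0.107).

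Probe sets of a gene did not always point the same way. Among 45 members with more than 1 probe set above the filter, all probe sets shared a sign in untreated mice for 29 and opposed each other for 16. The median gap was 0.16, and 3 gaps exceeded 0.5. The 18S rRNA control signal was 11.9 and 11.1 in tungstate and 11.1 and 10.6 in untreated Irs2-/- islets, against 12.6 and 11.9 in tungstate and 11.7 and 12.7 in untreated wild-type islets. Its part in the differences was not tested.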

How the data were processed

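Islet RNA was hybridised to 8 Affymetrix arrays, and the labels put 2 of them in each of 4 groups. The authors used RMA (affy, R 2.7.0), per the submitters' processing notes, and each deposited value is the log2 signal of a probe set. RMA normalizes between arrays, so a shift shared by all genes cannot be seen. No scan date or batch was used here. All array columns were used.

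Probe sets that name 1 gene (34945 of 45037, controls left out) were reduced to 18193 genes, each taken from the probe set that was brightest on average across all arrays. Genes below the 40th percentile of probe set means (log2 5.27) were not tested, which left 13369. The test was limma 3.58.1 in R 4.3.3, with a mean per group, 7 contrasts and Benjamini-Hochberg adjustment over all tested genes at 0.05, and 4 residual and 3.89 prior degrees of freedom. The number of arrays limits precision: the median SE of a difference was 0.14. Isoform pairs were compared with exact permutation tests over arrays. All 79 members matched a RefSeq gene by number. The fit was tested on simulated data.

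The members and the gene lists were chosen with earlier results of these data known. Genes are named by a rule: Irs2, members past the threshold, isoform pairs, a set of fixed members, the 3 highest and 3 lowest members not called, and up to 4 genes of each other list by p. Atpif1, a fixed member, had no single-gene probe set. Outside the rule are Cox8c, Atp5g2, Atp5g3, Ndufs4, the remaining core subunits of complex I, the cell markers, Mrpl36, Mrpl47 and Mrps6. Alternatives were other filters, a replicate block, a variance trend with robust moderation, fits of the compared arrays alone, median centring, quantile normalization, the mean of probe sets, the acinar level as a covariate, a threshold of 0.1, and leaving out arrays. The numbers pair no samples by the labels, and same-numbered deviations correlated at -0.07 to 0.42.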

Additional observations from a re-analysis of the deposited data

How the results depend on the processing

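With 2 arrays per group, the calls between untreated genotypes were the least stable. Their number was 5, and 5 or 6 without a filter, with the 60th percentile, with a variance trend and robust moderation, with only the arrays compared, with median centring, with quantile normalization and with the mean of probe sets. It was 1 with the acinar covariate, 10 at an adjusted p under 0.1 and 0 without replicate 1 of both untreated groups, a pair chosen from earlier results of these data. Leaving out 1 array gave 0 to 6. The 7 calls averaged over treatment became 1, 11 and 3 under those 3 settings and 2 to 9 when 1 array was left out, and the count of 0 in tungstate-treated mice became 0 to 2. The cause was not tested, and calls among all genes were not counted in the fits that left arrays out. Counts stayed at 0 in the other 4 comparisons under every alternative. With the replicate block 6 members were called between untreated genotypes and 6 averaged over treatment, and no count moved by over 1.5 times, although the numbers are not shown to pair the samples. Cox6a2 minus Cox6a1 was -2.92, and -3.46 to -2.58 with 1 array left out (exact p of 0.0286 or 0.0571), and -2.64 without both arrays above (exact p = 0.1, the smallest possible for 3 against 3). Signs turned for Cox6a2 when 1 array was left out, with ranges of -0.36 to 1.91 (tungstate in Irs2-/-), -0.068 to 1.07 (tungstate averaged) and -0.59 to 1.68 (interaction). The isoform differences near 0 turned as well. Cox8b gave 0.045 with quantile normalization and -0.077 to 0.013 with 1 array left out, Cox4i2 gave -0.038 to 0.075 and Ndufa4l2 -0.0067 to 0.18. Of 780 recomputed medians of the members and of each complex, 720 moved by less than the spread between replicates, and 60 moved by more. Genes below log2 5.27, among them 5 members, are too dim for a direction.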

Other observations

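Ribosomal protein genes also had medians above 0 between untreated genotypes. Of 76 proteins of the mitochondrial ribosome, which translates the mitochondrially encoded subunits, 5 were higher (6.58%) and 2 lower (2.63%) in Irs2-/- islets, against 8.27% and 8.52% of all tested genes, with a median of 0.15. The higher ones were Mrps18b (0.68 ± 0.17, limma adjusted p = 0.0353), Mrpl17 (0.56 ± 0.14), Mrpl47 (0.51 ± 0.14), Mrpl12 (0.51 ± 0.11) and Mrpl18 (0.45 ± 0.12). The lower ones were Mrps6 (-0.57 ± 0.16, adjusted p = 0.0486) and Mrpl36 (-0.43 ± 0.12, adjusted p = 0.0470). The mean of the 76 genes was 8.79 and 8.99 in untreated Irs2-/- islets, with replicate 2 the higher as it was for the respiratory chain subunits, and 8.73 and 8.75 in untreated wild-type islets. Of 45 cytosolic ribosomal proteins, 5 were higher (11.1%) and 0 lower by limma, with a median of 0.25 and a mean of 11.70 and 11.74 in untreated Irs2-/-, against 11.52 and 11.44 in untreated wild-type islets. In Irs2-/- islets given tungstate 60 of the 76 mitochondrial and 40 of the 45 cytosolic genes lay below 0 relative to untreated Irs2-/- islets, as did 6952 of all 13369 tested genes, with medians of -0.13 and -0.10, and 0 of either list passed the limma test (0.494% of all genes). That comparison shares the untreated Irs2-/- arrays with the genotype comparison.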
